A study of Rattus norvegicus with 15 samples.

Results

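Hearts of rats with sustained high plasma glucose were compared with hearts of control rats. The comparison used every array labelled as one or the other, 10 of the 15 arrays of the series: 5 of vehicle-treated rats (control) and 5 of rats given 1 tail vein injection of streptozotocin at 60 mg/kg (DM), whose plasma glucose exceeded 300 mg/dL. All animals were male Sprague-Dawley rats, an outbred strain. Streptozotocin kills the insulin-producing beta cells of the pancreas, so the effects of the toxin itself, of lost insulin and of raised glucose cannot be told apart in this design. The remaining 5 arrays held hearts of rats treated like the DM rats that were also starved for 24 h and given insulin at 0.5 IU/kg (GF); they served here to estimate the spread and for side-by-side values. The sources used here give neither age, nor the time since the injection, nor the part of the heart taken. Each array reported 350 rat microRNAs (miRNAs) from total RNA, and all 350 were considered.

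A miRNA is a short RNA that is cut from a hairpin precursor and guides the silencing complex to messenger RNAs, mainly by pairing of its seed, bases 2 to 8. Either arm of the hairpin can yield a mature miRNA, and the less abundant arm carries an asterisk in the names used on these arrays. Heart muscle is rich in miR-1, the miR-133 pair and miR-499, whereas blood, vessels, connective tissue and immune cells in the organ bring miRNAs of their own.

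The sequences below belong to the miRNAs on which the comparison turns. They were taken from RefSeq (build GRCr8), which held 136 of the 165 miRNAs tested, and are written 5′ to 3′ with the seed in capitals. The first 4 come from tandem hairpin pairs, one on chromosome 10 whose miRNAs had lower means in DM hearts and one on chromosome 4 whose miRNAs had higher means; none of the 4 passed the test over distinct samples.
miR-144 (chr10:63459446-63459465, plus strand): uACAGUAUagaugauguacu
miR-451 (chr10:63459585-63459606, plus strand): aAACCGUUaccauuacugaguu
miR-141 (chr4:159209540-159209561, minus strand): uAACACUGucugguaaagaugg
miR-200c (chr4:159209969-159209989, minus strand): uAAUACUGccggguaaugaug
The arms of the miR-22 hairpin are shown because their values parted, miR-22* being the lesser arm.
miR-22* (chr10:60805349-60805370, plus strand): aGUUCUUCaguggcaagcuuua
miR-22 (chr10:60805387-60805408, plus strand): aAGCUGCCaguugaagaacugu
The following are shown for their seeds: miR-17 and miR-20a carry the same one, and those of miR-101a and miR-144 differ at 1 base. For miR-17, which has 2 loci, 1 is given.
miR-20a (chr15:98588318-98588340, plus strand): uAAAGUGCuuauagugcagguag
miR-17 (chr15:98587861-98587883, plus strand): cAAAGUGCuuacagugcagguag
miR-101a (chr5:121081691-121081711, minus strand): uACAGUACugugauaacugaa
The last 3 had the widest differences among the remaining miRNAs with an unadjusted p under 0.05, or, for miR-208, among the muscle miRNAs.
miR-34a (chr5:165815971-165815992, plus strand): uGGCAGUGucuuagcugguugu
miR-185 (chr11:96169041-96169062, plus strand): uGGAGAGAaaggcaguuccuga
miR-208 (chr15:32395568-32395585, minus strand): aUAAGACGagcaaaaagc

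Before any comparison, every pair of arrays was set against the measurement error stated by the scanner software, as a reduced chi-square over 156 miRNAs, in which 1 means that 2 arrays differ by as much as that error. Control replicates 1 and 3 differed by less (0.240), as did DM replicates 2 and 4 (0.364), DM replicates 3 and 5 (0.563) and 2 pairs of GF arrays (0.549 and 0.565). Each such pair lay across the 2 slides and was averaged and used once, leaving 4 samples of control, 3 of DM and 3 of GF hearts. These numbers depend on the limit of 1. DM 1 lay at 1.09 from DM 4 and 1.17 from DM 2, and control 4 at 1.045 from control 3. With a limit of 1.2, DM 1 would join DM 2 and 4, and control 4 would join control 1 and 3. Nothing in the labels ties an array to an animal of its own, so the spread that p-values rest on may be partly technical. The samples did not sort cleanly by label. Control replicate 5 lay at 1.15, 1.69 and 1.93 from DM replicates 1, 4 and 2, but at 3.32 to 4.09 from the other control arrays. DM replicates 3 and 5 lay at 2.30 to 3.59 from the GF arrays and at 4.65 to 5.58 from the other DM arrays. For the 14 miRNAs with an unadjusted p under 0.05, the difference without each of these samples is therefore plotted beside the full one, and for the others it is printed where it moved most.

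**Figure D1:**
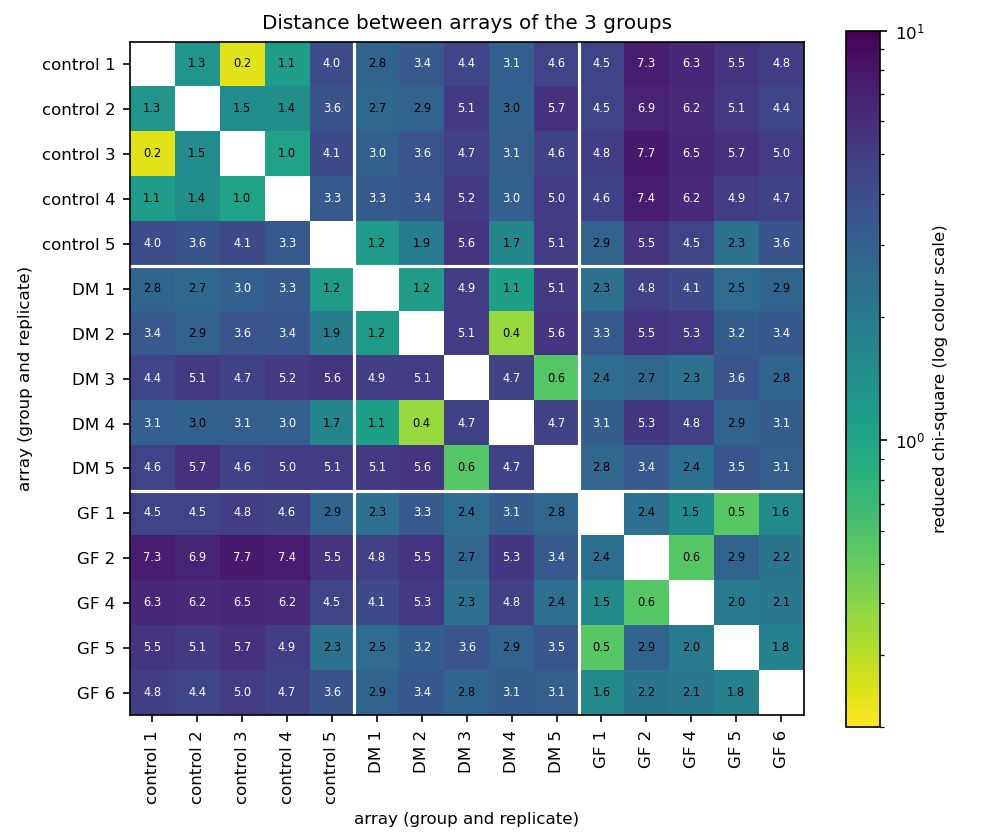
Reduced chi-square between every 2 arrays (rows and columns: group and replicate), on a logarithmic colour scale with the value written in each cell; white lines part the groups. Control 5 is closer to DM 1 (1.15) than to any control array (3.32 or more), and DM 3 and DM 5 are closer to the GF arrays (2.30 to 3.59) than to DM 1, 2 and 4.

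Array brightness, the 75th percentile of the signal over the probes detected on all arrays, was 2205 ± 261 in the 4 control and 2027 ± 256 in the 3 DM samples (SD). The difference of -178 had a two-sided exact permutation p of 0.343, where 0.0571 is the smallest that 4 against 3 samples allow; it was 140 within slide 1 and -237 within slide 2. Signals below are log2 values after each array was scaled to that percentile, with a floor of 4.31 (a scaled signal of 19.8). The profile was that of heart muscle in both groups. The probes with the largest signals were those of miR-133b (16.22 ± 0.19 in control and 16.04 ± 0.06 in DM samples, SD), miR-1, miR-22, miR-29b, miR-23a, let-7f, miR-29a, miR-126, let-7a and miR-23b. The mature miR-133a and miR-133b differ only at the last base, and how far their probes tell them apart was not tested. The skeletal muscle miRNA miR-206 was not well above background on any of the 10 arrays, nor were miR-122 of liver, miR-124 of neurons or miR-375 of pancreatic islets. Across the 10 arrays 143 of the 350 miRNAs were above background on every array and 179 on none; 165 reached it on 3 or more arrays of some group and were tested. None was above background in every sample of one group and in no sample of the other (0 in either direction).

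No miRNA passed the threshold between DM and control hearts: 0 of 165 (0%) had an adjusted p under 0.05 in limma, the smallest being 0.468. At an unadjusted p under 0.05 there were 14 (8.48%), of which 9 were higher in DM (5.45%) and 5 lower (3.03%). The higher ones were miR-200c, miR-141, miR-34a, miR-185, miR-29a*, miR-223, miR-17, miR-20a and miR-101a, and the lower ones miR-451, miR-144, miR-22*, miR-133a and miR-150. With the 15 arrays taken as independent, which counts repeated samples more than once, 3 passed (1.82%), all lower: miR-451, miR-144 and miR-22*, each at an adjusted p of 0.0175; 36 then had an unadjusted p under 0.05 (21.8%). The same count of 3 passed with the slide as a block in that fit, against 0 within slide 1 and 2 within slide 2. Since 0 passed over distinct samples, differences below are values and not calls. The adjusted p of each of the 14 was 0.468 over distinct samples; below, each difference carries its SE and limma's 95% interval instead, which is not adjusted for the 165 tests.

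Most differences were small. The median over the 165 was 0.03 on the log2 scale, 138 lay within 0.25 of 0, and 3 lay beyond 1 (miR-200c, miR-141 and miR-139-3p). The 95% interval of a difference had a median half-width of 0.26, a factor of 1.19, and for 116 miRNAs the whole interval lay within 0.5 of 0. By level, the 55 dimmest tested miRNAs held 3 of the 14, the middle 55 held 6 and the brightest 55 held 5; the median SE was 0.15, 0.11 and 0.10. Without scaling between arrays the differences moved by a median of -0.13, and with scaling to the hur control spots by 0.13, so a difference below about that size has no settled sign. The split of the 14 into 9 higher and 5 lower was 43 and 1 of 44 scaled to the hur spots, 2 and 7 of 9 without scaling, 19 and 5 of 24 with normexp, 8 and 12 of 20 with quantile normalization, 8 and 8 of 16 with the mean of all probes, 12 and 4 of 16 with the 75th percentile over all probes, 5 and 14 of 19 with total gene signal and 3 and 4 of 7 with the authors' deposited values. The median standard deviation of a miRNA was 0.15 among control and 0.13 among DM samples.

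**Figure D2:**
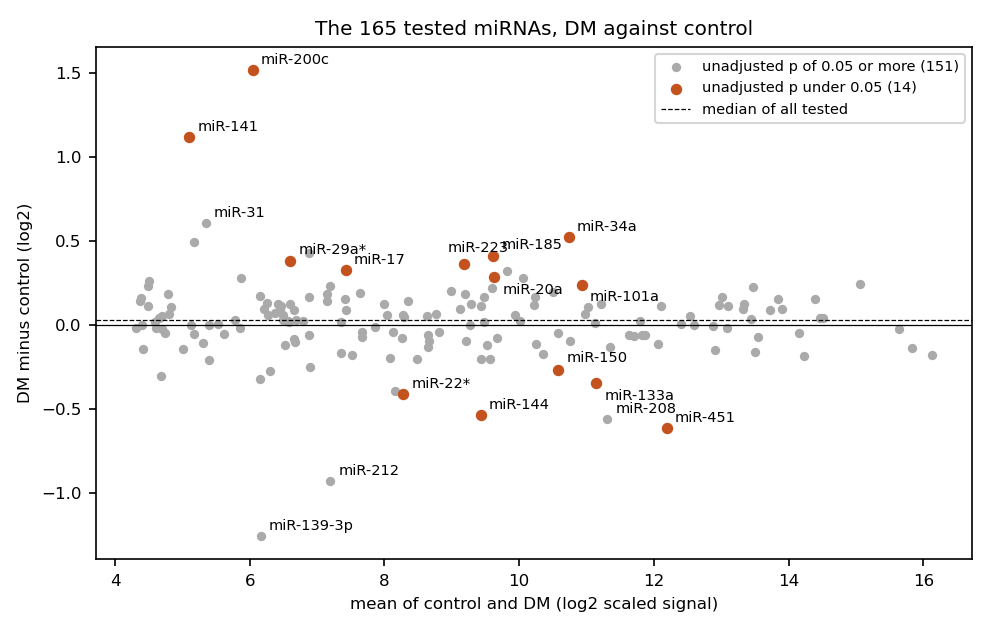
Difference between DM and control (log2, vertical) against the mean signal of the groups (log2 scaled signal, horizontal) for the 165 tested miRNAs, with the 14 at an unadjusted p under 0.05 in colour and the median of all (0.03) dashed. Most points lie within 0.25 of 0, and the widest differences, miR-200c (1.51) and miR-139-3p (-1.25), belong to dim probes.

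The red cell miRNAs miR-451 and miR-144 had lower means in DM hearts. They come from one precursor cluster, with 161 bases from the start of miR-144 to the end of miR-451, and are made mainly in developing red cells; miR-451 is cut by Argonaute and not by Dicer. The signal of miR-451 was 12.49, 12.66, 12.42 and 12.40 in control samples 1+3, 2, 4 and 5, and 12.38, 11.54 and 11.72 in DM samples 1, 2+4 and 3+5. The groups did not overlap, as was so for 6.06% of all tested, although DM 1 lay next to the lowest control. That gave a difference of -0.61 ± 0.19 (SE, limma; 95% interval -1.03 to -0.20), 1.53-fold lower in DM. The signal of miR-144 was 9.79, 9.74, 9.68 and 9.57 in the same control samples and 9.71, 8.89 and 8.87 in the same DM samples. DM 1 again lay among the controls and the other DM samples well below them, so the groups overlapped. Its difference was -0.54 ± 0.19 (SE; 95% interval -0.96 to -0.12).

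For this pair the outcome of the test hung on DM 1. Without it the difference was -0.87 for miR-451 (limma adjusted p = 0.00856) and -0.82 for miR-144 (adjusted p = 0.00532), and these were the 2 miRNAs past the threshold; without control 5 they were -0.65 and -0.58, with adjusted p of 0.186 for each. Within slide 1 the differences were -0.72 and -0.64, and within slide 2, which holds no DM 1 array, -0.77 and -0.76, with adjusted p of 0.0485 and 0.0421. Both kept their sign under each of 8 scalings and summaries, from -0.74 to -0.48 for miR-451 and from -0.66 to -0.41 for miR-144. The summed signal of the pair ran from 12.59 to 12.84 (log2) in control and from 11.75 to 12.59 in DM samples; what part the amount of blood in a sample has in the other differences was not tested. In RNA of whole tissue, fewer red cells and less of these miRNAs per cell cannot be told apart. GF samples, compared with the same DM samples, read 12.09, 11.97 and 12.35 for miR-451 and 9.38, 9.20 and 9.48 for miR-144, which put them between the control and DM means.

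The miR-200 family members miR-200c and miR-141 had the largest differences above 0. Their mature sequences span 450 bases on chromosome 4, and the family is known for repressing the ZEB transcription factors and for high levels in epithelia; their seeds differ at 1 base, so miR-141 and miR-200c belong to different seed groups of the family. The signal of miR-200c was 5.03, 4.94, 4.84 and 6.34 in control samples 1+3, 2, 4 and 5, and 6.28, 6.01 and 8.12 in DM samples 1, 2+4 and 3+5. The DM samples were not alike: 3+5 stood about where the GF samples stood (8.13, 7.71 and 7.76), while control 5 was above DM 1 and DM 2+4, so the groups overlapped. The difference was 1.51 ± 0.51 (SE; 95% interval 0.37 to 2.66), a 2.86-fold higher mean.

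The probe of miR-141 was above background on 2 of 5 control arrays and on all 5 DM arrays. It was at the floor of 4.31 in control samples 1+3, 2 and 4 and at 5.25 in control 5, and read 5.21, 4.77 and 6.99 in the DM samples. The order of the samples was thus that of miR-200c, with 3+5 highest among DM and control 5 highest among control. With 3 of 4 control values at the floor, the difference of 1.11 ± 0.47 (SE; 95% interval 0.06 to 2.17) depends on where the floor lies. Without the sample of DM 3+5 it was 0.86 for miR-200c and 0.45 for miR-141, and without control 5 it was 1.86 and 1.35. Normexp background correction gave 0.88 and 0.68. No adjusted p for either went below 0.05 in these settings. The other family members were dim: miR-200a and miR-200b were at the floor in 3 control samples and in DM 3+5, and read 4.88 and 4.86 in DM 1. Among the DM samples, the one highest for miR-200c and miR-141 was thus lowest for miR-200a and miR-200b. The epithelial list also held miR-429, miR-203 and miR-205, which were not well above background on any of the 10 arrays. Of the 4 tested members, miR-141, miR-200a and miR-200b met the detection filter in DM arrays but not in control arrays, so that all 4 were higher is no support.

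**Figure D3:**
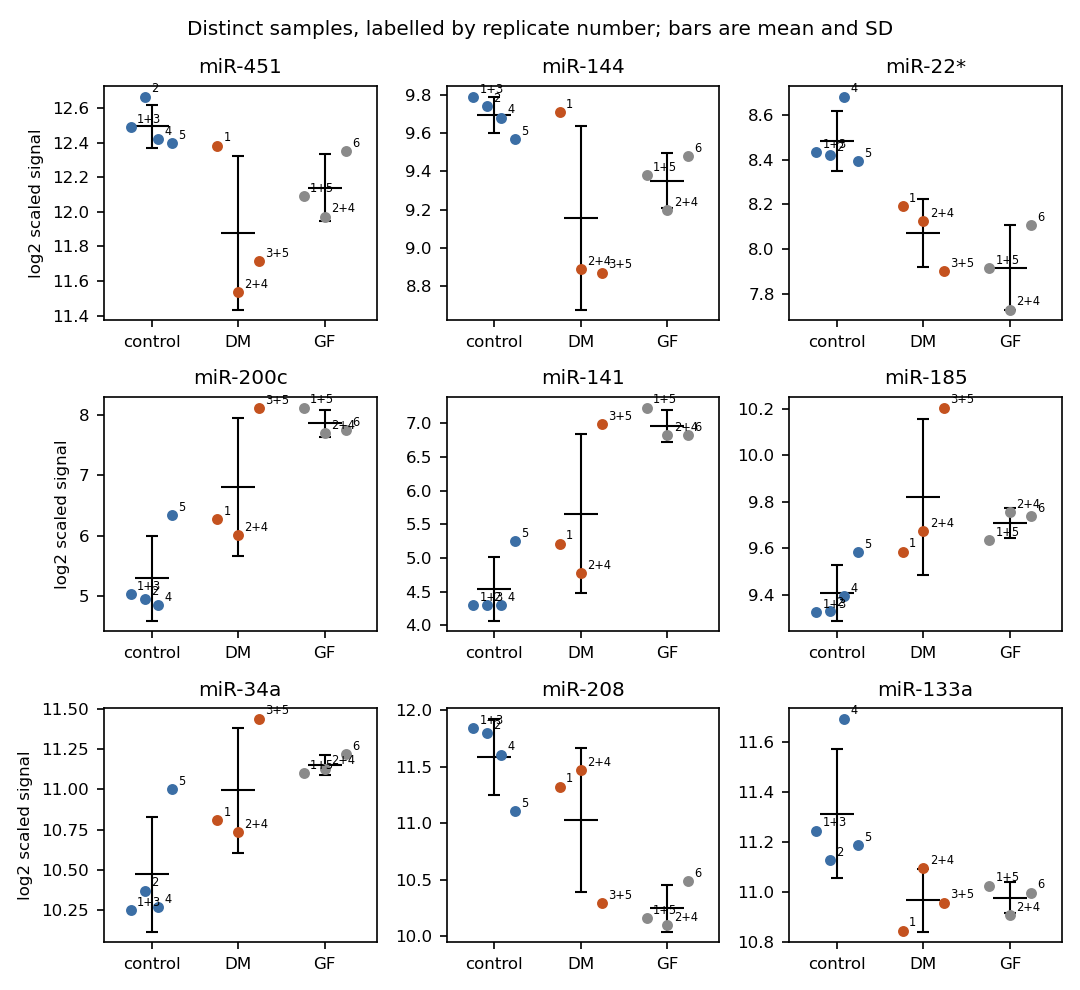
Log2 scaled signal of 9 miRNAs in each distinct sample (points, labelled by replicate number) of the control, DM and GF groups, with mean and SD as bars; each panel has its own vertical range, which does not start at 0. DM 1 sits with the controls for miR-451 and miR-144, and DM 3+5 sits with the GF samples for miR-200c, miR-141 and miR-208.

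The miR-22 hairpin gave its main arm at like means in both groups and its lesser arm at a lower mean in DM hearts. The differences of the arms lay 0.38 apart, and whether the arms differ in their response was not tested. miR-22, which heart muscle makes in quantity and which is known to restrain histone deacetylase 4 and sirtuin 1, had a signal of 15.65 ± 0.19 in the 4 control and 15.62 ± 0.09 in the 3 DM samples (SD), a difference of -0.03 ± 0.12 (SE; 95% interval -0.30 to 0.25). The signal of miR-22* was 8.43, 8.42, 8.68 and 8.39 in control samples 1+3, 2, 4 and 5, and 8.19, 8.12 and 7.90 in DM samples 1, 2+4 and 3+5. Each DM sample lay below each control sample, with a gap of 0.20 between the groups. Its difference of -0.41 ± 0.12 (SE) had the smallest unadjusted p of the 165 (95% interval -0.67 to -0.15), and was -0.35 within slide 1 and -0.51 within slide 2. It kept its sign under all 8 scalings and summaries and was -0.26 with normexp. GF samples read still lower, at 7.92, 7.73 and 8.11 (GF minus DM -0.15, limma adjusted p = 0.65).

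In most hairpins with both arms tested, the arms gave like differences. Across 23 such pairs the differences lay a median of 0.11 apart, and 21 pairs lay within 0.25. The exceptions were miR-22 and miR-139, with miR-29a next at 0.23. Since 138 of all 165 tested miRNAs lay within 0.25 of 0, this closeness says little about sharing a hairpin. The arm miR-29a* was 6.37, 6.19, 6.41 and 6.68 in control and 6.98, 6.88 and 6.53 in DM samples. Control 5 lay above DM 3+5, so the groups overlapped at a difference of 0.38 ± 0.15 (SE; 95% interval 0.06 to 0.71). The main arm miR-29a, a repressor of collagen genes, differed by 0.16 ± 0.13 (SE; 95% interval -0.15 to 0.46), and miR-29b and miR-29c, which share its seed, by 0.24 and 0.11. The value for miR-29a* was 0.10 with the mean of all probes, and that for miR-29a was 0.26 without control 5.

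The miRNAs typical of heart and skeletal muscle had lower means in DM hearts, each by a different margin. All 5 tested members of that list were below the control mean, against 68 of all 165 tested. Their median was -0.18 against 0.03 over all tested. Of the 5, 0 passed and 1, miR-133a, had an unadjusted p under 0.05, against 8.48% of all tested. Among the 8 scalings and summaries the list median ran from -0.31 to -0.03, and at most 2 of the 5 were above 0. The summed signal of the list ran from 16.92 to 17.38 (log2) in control and from 16.95 to 17.05 in DM samples, so the sum overlapped. The bright miR-133b and miR-1 differed by -0.18 ± 0.11 and -0.14 ± 0.12 (SE), and miR-499, encoded in a myosin gene, by -0.11 ± 0.10. Scaled to the hur control spots miR-1 and miR-499 were at -0.01 and 0.02, and without scaling at -0.26 and -0.24. The sign of miR-499 is thus not settled.

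miR-133a, a repressor of growth genes in heart muscle and a neighbour of miR-1 on chromosome 18, was 11.24, 11.13, 11.69 and 11.19 in control and 10.85, 11.10 and 10.96 in DM samples. The groups did not overlap, but the gap between control 2 and DM 2+4 was small. The difference was -0.35 ± 0.13 (SE; 95% interval -0.64 to -0.05), -0.19 within slide 1 and -0.35 within slide 2. Its relative miR-133b shares the seed, and all 3 DM samples read 15.97 to 16.08, inside the control range of 15.98 to 16.44 except for DM 1. miR-208, encoded in an intron of the alpha myosin heavy chain gene and needed for the switch to beta myosin under stress, was 11.85, 11.80, 11.61 and 11.10 in control and 11.32, 11.47 and 10.29 in DM samples. As with miR-200c, DM 3+5 stood with the GF samples (10.16, 10.10 and 10.49), and control 5 lay below DM 1 and DM 2+4. Its difference was -0.56 ± 0.28 (SE; 95% interval -1.19 to 0.07) with all samples and -0.19 without DM 3+5.

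Further miRNAs had higher means in DM hearts with DM 3+5 at the top. miR-185 was 9.33, 9.33, 9.39 and 9.58 in control and 9.59, 9.67 and 10.20 in DM samples. Control 5 lay just under DM 1 and the other controls well under it, so the groups did not overlap, by the narrowest margin. The difference was 0.41 ± 0.14 (SE; 95% interval 0.09 to 0.73), and 0.22 without DM 3+5. miR-34a, a p53-induced miRNA linked to ageing of heart muscle and known to repress sirtuin 1, was 10.25, 10.37, 10.27 and 11.00 in control and 10.81, 10.73 and 11.44 in DM samples. Control 5 lay above DM 1 and DM 2+4, whereas the other controls lay below all DM samples. Its difference was 0.52 ± 0.21 (SE; 95% interval 0.04 to 1.00), 0.70 without control 5 and 0.30 without DM 3+5. The other miRNAs with its seed, miR-34b and miR-34c, differed by -0.11 and -0.02, and by 0.19 and 0.13 without DM 1.

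miRNAs of the miR-17 to miR-92a cluster, a set of hairpins on chromosome 15 promoting cell division, mostly had slightly higher means in DM hearts. Those of its paralogue on chromosome 12 did not. Since miR-17, miR-19b and miR-92a each have 2 loci, their signal cannot be assigned to chromosome 15 alone. miR-20a was 9.43, 9.50, 9.39 and 9.62 in control and 9.70, 9.68 and 9.93 in DM samples, with no overlap (0.28 ± 0.11, SE; 95% interval 0.03 to 0.54). miR-17 was 7.15, 7.27, 7.16 and 7.46 in control and 7.43, 7.56 and 7.77 in DM samples, overlapping at control 5 and DM 1 (0.32 ± 0.13, SE; 95% interval 0.02 to 0.63). These 2 share the seed AAAGUGC printed above with miR-106b and miR-93. Of the same chromosome 15 cluster miR-92a differed by 0.28 ± 0.16, miR-19b by 0.19 ± 0.11 and miR-19a by 0.19 ± 0.11 (SE), while miR-18a was near the floor. Without DM 3+5 these 3 differences were 0.10, 0.11 and 0.12, and that of miR-20a was 0.20. On chromosome 12 the differences of miR-93, miR-25 and miR-106b were -0.18, -0.13 and 0.00, so the 4 miRNAs with the common seed ran from -0.18 to 0.32. The difference between the clusters was not tested. Over the 9 tested members of both clusters 5 were higher, against 97 of all 165, and 2 of them had an unadjusted p under 0.05, against 5.45% of all tested. The list median was 0.19 (0.07 to 0.32 over the 8 scalings and summaries), and 0.10 without DM 3+5.

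miR-101a, a repressor of the Polycomb methyltransferase EZH2, was 10.84, 10.68, 10.72 and 10.98 in control and 11.06, 10.92 and 11.16 in DM samples. Only control 5 reached into the DM range. The difference was 0.24 ± 0.09 (SE; 95% interval 0.03 to 0.45), with 0.30 without control 5 and 0.11 without scaling. miR-301a followed as the first above an unadjusted p of 0.05, at 0.19 ± 0.09 (SE; 95% interval -0.01 to 0.38).

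**Figure D4:**
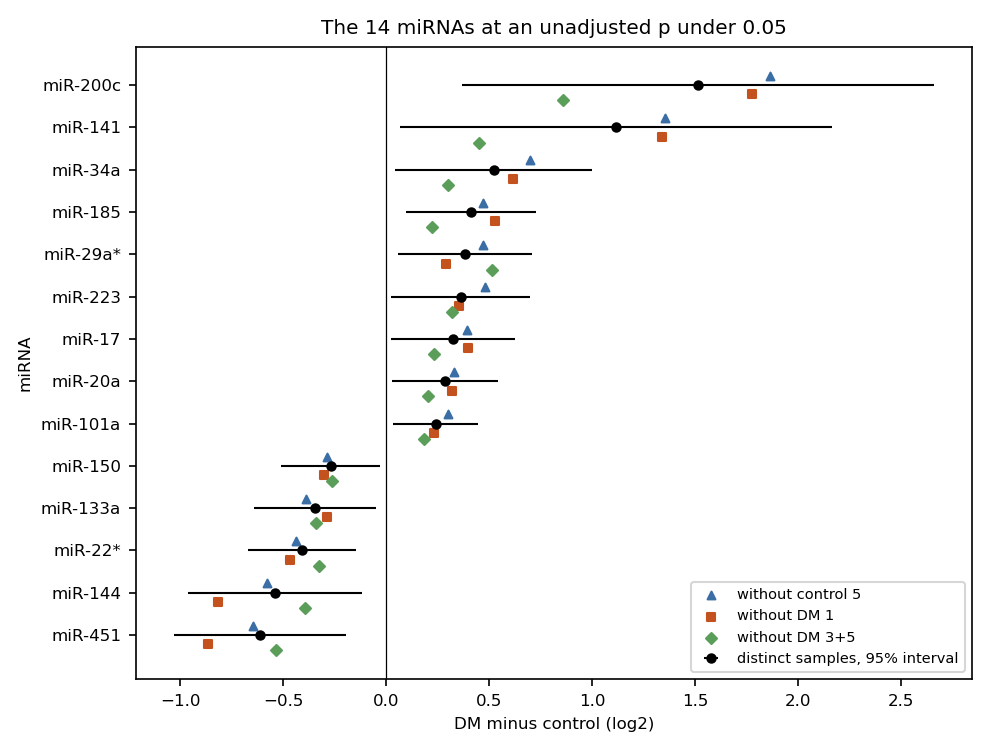
Difference between DM and control (log2) with its 95% interval from limma for the 14 miRNAs at an unadjusted p under 0.05 (black), and the same difference without control 5 (triangles), without DM 1 (squares) and without the sample of DM 3+5 (diamonds). For miR-200c the value goes from 1.51 to 0.86 without DM 3+5, and for miR-451 from -0.61 to -0.87 without DM 1.

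The leukocyte miRNAs differed in both directions. The lymphocyte miRNA miR-150 was 10.74, 10.55, 10.91 and 10.66 in control and 10.51, 10.39 and 10.43 in DM samples. The groups were apart by 0.04 between control 2 and DM 1, at a difference of -0.27 ± 0.11 (SE; 95% interval -0.51 to -0.03). Among GF samples it read 10.61, 10.60 and 10.91, in the control range. miR-223, made mainly by neutrophils and macrophages and known to raise glucose uptake in heart muscle cells, was 8.77, 9.13, 8.73 and 9.35 in control and 9.37, 9.26 and 9.44 in DM samples. Control 5 lay inside the DM range and the other controls below it (0.36 ± 0.15, SE; 95% interval 0.02 to 0.70). miR-142-3p and miR-146a, found in most white cells, differed by 0.01 ± 0.16 and -0.10 ± 0.09 (SE). Over the list 3 of 7 tested members were higher, the median was -0.10 (-0.22 to 0.03 over the scalings and summaries, and 0.10 without DM 3+5), and the summed signal was 12.66 to 12.73 in control and 12.44 to 12.74 in DM samples. miR-342-5p was not well above background on any of the 10 arrays.

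No tested endothelial or smooth muscle miRNA had an unadjusted p under 0.05, and miR-222 was not well above background on any of the 10 arrays. miR-126, the main miRNA of vessel lining, was 14.49, 14.22, 14.39 and 14.18 in control and 14.30, 14.08 and 14.04 in DM samples, overlapping through DM 1 (-0.18 ± 0.10, SE; 95% interval -0.41 to 0.04). Its other arm miR-126* differed by -0.20 ± 0.11, and miR-221 by 0.02 ± 0.17 (SE). Of smooth muscle, miR-143 differed by 0.16 ± 0.16 and its neighbour miR-145 by -0.02 ± 0.19 (SE); without control 5 these were 0.30 and 0.15.

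Some of the widest differences had the widest errors. miR-139-3p was 6.92, 7.01, 7.32 and 5.91 in control and 5.05, 4.31 and 7.25 in DM samples. DM 2+4 was at the floor whereas DM 3+5 lay within the control range, so the difference of -1.25 ± 0.68 (SE; 95% interval -2.77 to 0.26) averaged unlike DM samples; it was -2.11 without DM 3+5 and -0.42 with normexp. The other arm, miR-139-5p, differed by -0.01 ± 0.12 (SE). miR-212, induced with cardiac growth and known to repress FOXO3, was 8.49, 7.49, 7.96 and 6.68 in control and 6.51, 5.46 and 8.22 in DM samples. Here too DM 3+5 stood with the controls and control 5 next to DM 1 (-0.93 ± 0.63, SE; 95% interval -2.33 to 0.48; -1.67 without DM 3+5 and -0.49 with normexp).

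miR-31 was at or near the floor in control 1+3 and 4 and in DM 3+5, 4.67 in control 2, and 6.89, 6.24 and 6.40 in control 5, DM 1 and DM 2+4. The samples thus divided across the labels, and the difference was 0.60 ± 0.75 (SE; 95% interval -1.07 to 2.27). It was 1.27 without DM 3+5, 1.22 without control 5 and 0.31 without DM 1. The kidney- and gut-rich miRNAs miR-192 and miR-194 differed by 0.43 ± 0.20 (SE, 95% interval -0.03 to 0.89) and 0.49 ± 0.24 (SE, 95% interval -0.05 to 1.04). They share a locus on chromosome 1, which is 1 of the 2 loci of miR-194. For both, the DM samples were close together (7.04 to 7.15 and 5.36 to 5.51) and control 5 lay among them (7.11 and 5.40), above the other controls (6.38 to 6.68 and 4.65 to 4.82).

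The lists of glucose- and insulin-linked, fibrosis, and hypertrophy and stress miRNAs had medians of -0.03 to 0.16, against 0.03 for all 165 miRNAs. Among glucose- and insulin-linked miRNAs, 9 of 9 tested were higher, against 97 of all 165 (median 0.16; 6 to 9 higher over the scalings and summaries, where the median of all tested went from -0.10 to 0.15) and only miR-223 had an unadjusted p under 0.05, against 8.48% of all tested; miR-33, which represses cholesterol export and fatty acid oxidation, was higher by 0.23 ± 0.11 (SE; 95% interval -0.02 to 0.47), miR-378, encoded in the gene of a mitochondrial coactivator, by 0.17 ± 0.09 (SE; 95% interval -0.03 to 0.36), and miR-103 by 0.02 ± 0.07. The list shares the miR-29 members with the fibrosis list. Of the 7 fibroblast and fibrosis miRNAs 4 were higher (median 0.11, and -0.01 without scaling), with miR-21, an abundant miRNA of scarring hearts, at 0.22 ± 0.14 (SE; 95% interval -0.08 to 0.53) and miR-199a-5p and miR-214 at -0.09 and -0.06 (0.08 and 0.06 without DM 3+5). Of 13 miRNAs tied to hypertrophy and stress 6 were higher (1 to 11 over the scalings and summaries) with a median of -0.03 (0.03 without control 5 and 0.06 without DM 3+5), and miR-210, induced by low oxygen, differed by -0.20 ± 0.10 (SE; 95% interval -0.43 to 0.03).

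**Figure D5:**
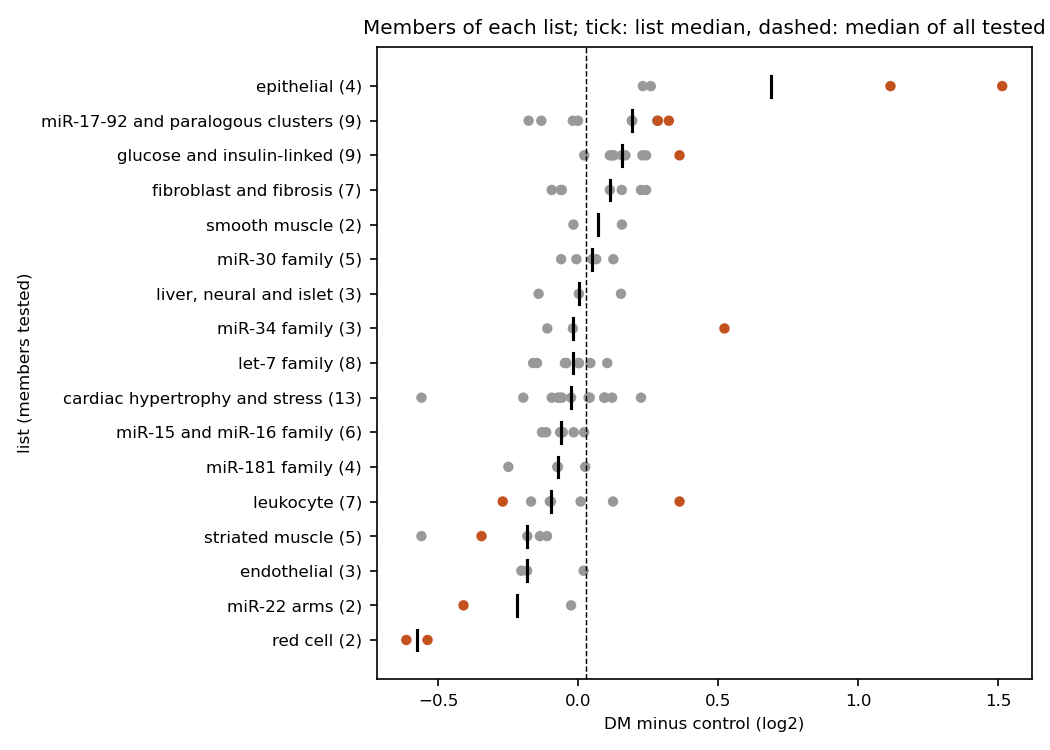
Difference between DM and control (log2) of each tested member (points; colour marks an unadjusted p under 0.05) of 17 lists of related miRNAs, with the number tested in brackets, the list median as a tick and the median of all 165 as a dashed line. List medians run from -0.58 (red cell, 2 members) to 0.69 (epithelial, 4 members), most of them within 0.2 of 0.

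Families of related sequence had medians near 0. The 8 tested let-7 members had a median of -0.02 with 4 higher, the miR-15 and miR-16 family, in which miR-503 has another seed than the other 5, one of -0.06 (1 of 6 higher), the miR-30 family 0.05 (3 of 5 higher) and the miR-181 family -0.07 (1 of 4 higher); scaled to the hur spots these medians were 0.11, 0.07, 0.18 and 0.06, and without scaling -0.15, -0.19, -0.08 and -0.20, so the sign of none is settled. Of their members 0 of 23 had an unadjusted p under 0.05, against 8.48% of all tested. Over 20 seed groups with 2 or more tested members, medians ran from -0.26 (miR-133a and miR-133b) to 0.19 (miR-19a and miR-19b). Of 29 groups of neighbouring miRNAs, no more than 10000 bases apart on one strand and counting arms of a hairpin, 25 had members within 0.25 of each other. That count says little about neighbours, since 138 of all 165 tested miRNAs lay within 0.25 of 0. Base composition of the mature sequence ran alongside little of the difference: across the 136 miRNAs with a sequence, which share these samples and are not independent, Pearson's r with the share of G and C was -0.04 and Spearman's rho 0.05.

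Over all tested, 10 of 165 (6.06%) had groups that did not overlap, 2 higher (1.21%) and 8 lower (4.85%) in DM. Of the 35 orders of 4 against 3 samples, a share of 0.0571 puts the groups fully apart, which is the smallest two-sided exact permutation p. The 6.06% is near that share, so groups that do not overlap are no support for a difference. The 10 miRNAs included 6 of the 14, namely miR-22*, miR-451, miR-185, miR-133a, miR-150 and miR-20a. The other 4 were let-7c, miR-25, miR-93 and miR-100 (the last named only to complete the count), with differences of -0.18 to -0.13. DM 3+5 was the DM sample farthest from the control mean for 10 of the 14, and control 5 was the control nearest to the DM mean for 12 of the 14. The 14 were picked by p from these same values. The same counts were not made over all 165, so whether they are particular to the 14 was not tested. Set against the mean of the other controls, control 5 was itself higher by more than 0.5 for 19 miRNAs and lower for 6, whereas DM 1 stood that far from the control mean for 6 and 4, DM 2+4 for 3 and 6, and DM 3+5 for 9 and 12.

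The authors' deposited table of this comparison listed 5 miRNAs, with a p-value of their 3-group test that was not corrected for multiple tests. In the authors' deposited table the log2 differences were 1.67 for miR-200c, 1.84 for miR-141, 3.24 for miR-184, -0.72 for miR-144 and -0.76 for miR-451. In the distinct samples they were 1.51, 1.11, 0.14, -0.54 and -0.61, with the same signs. The 5 were listed from the same arrays, so the shared signs are no independent support. For miR-184 no lower value was possible, as its control samples were all at the floor. The values for miR-184 lay far apart. Its probe was not well above background on any control array and was so on 3 of 5 DM arrays; all control samples were at the floor and the DM samples read 4.31, 4.34 and 4.69, so no fold is given (difference 0.14, 95% interval -0.07 to 0.35, limma adjusted p = 0.586). With total gene signal, the quantity the authors used, the fitted difference was 2.63.

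Against the GF hearts, which had the diabetes of the DM rats and the fast and insulin besides, 0 of 165 passed in limma and 18 had an unadjusted p under 0.05 (10.9%). Both comparisons use the same DM samples, so their values are set side by side and not correlated. Where DM was above control for miR-200c and miR-141, GF was above DM by 1.06 (limma adjusted p = 0.42) and 1.30 (adjusted p = 0.408), and miR-208 was lower in GF than in DM by -0.78 (adjusted p = 0.408). For miR-150, GF was above DM by 0.26 (adjusted p = 0.418), opposite to the DM value. For miR-29a* and miR-133a, GF and DM were at like means (0.00 and 0.01).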

How the data were processed

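The deposited array files hold a signal intensity per spot, read with Agilent Feature Extraction 9.5.3.1 per the submitters' processing notes, background-subtracted and not scaled between arrays. The authors' deposited log2 values are log2 total gene signals minus the control mean: recomputed, they differed by at most 2.05e-06 over 149 miRNAs. Their deposited table of comparisons gives a log2 difference and a p-value that was not corrected, per the file headers.

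Outlier spots were dropped (153 to 294 of 7953 per array); 0 were saturated. From 166 to 190 miRNAs were detected per array, and the number of arrays limits the precision. Signals were scaled to each array's 75th percentile over the 254 probes above background on all 15 arrays, and the brightest probe stood for a miRNA. DM was compared with control with limma 3.58.1 under R 4.3.3 (linear model, moderated by eBayes, two-sided, Benjamini-Hochberg over 165 miRNAs) on 10 distinct samples, the GF samples adding to the estimate of spread. Each p not called exact is limma's. Arrays of 1 group with a reduced chi-square under 1 were averaged. The arrays lay on 2 slides, each with all groups. Alternatives were other scalings (normexp with an offset of 50, on median signals), summaries, filters, fits and left-out samples. Python 3.11.15 with scipy 1.17.1, pandas 2.3.3, numpy 2.4.6 and matplotlib 3.10.9 did the rest.

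The comparison and the lists of miRNAs were chosen with earlier results of these data known. The miRNAs named are those past the threshold in either fit, the 15 smallest unadjusted p, the 6 largest differences each way, those in the authors' table, the 10 brightest, and members of the lists, with values for up to 4 a list.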

Additional observations from a re-analysis of the deposited data

Results flagged for a closer look

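In 4 of 21 sets of 4 control values, 1 sample stood far from the others by Dixon's test; chance alone marks about 1 set in 20. Control 5 was high for miR-200c (6.34, the others 4.84 to 5.03), for miR-34a (11.00, the others 10.25 to 10.37) and for miR-31 (6.89, the others 4.31 to 4.67). Control 4 was high for miR-22* (8.68, the others 8.39 to 8.43). The sets share their samples, so they are not independent. The set of miR-141, with values tied at the floor, was not tested.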

How the results depend on the processing

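The count past the adjusted threshold was 0 over distinct samples, 3 with 15 arrays taken as independent, 3 with the slide as a block in that fit, 2 within slide 2 and 2 without control replicate 5 and DM replicate 1 together, which was chosen after seeing the data. Leaving out each sample gave 0 to 2, the 2 without DM replicate 1. The count at an unadjusted p under 0.05, 14, was 36 with 15 arrays, 36 with the slide block, 7 with a merging limit of 1.2, 9 with no scaling, 44 scaled to the hur spots, 24 with normexp, 7 with the authors' values and 24 without both samples; it was 7 without control replicate 4 and 36 without control replicate 5, the ends of the range over left-out samples. With the replicate number as a block in the 15 arrays, 4 passed (38 unadjusted), miR-200c being the added one. Same-numbered control and DM arrays deviated together (r over 0.1) in 2 of 5 numbers, and 2 of 5 control arrays correlated best with their own number. The arrays include repeated samples, so this check cannot decide whether the numbers pair the samples. The brightness difference of -178 was 140 within slide 1, and -302 to -39.0 over left-out samples. The 22 miRNAs under the naming rule other than list members and brightest kept their sign under each of the 27 settings, in 589 values. These miRNAs were chosen for a small p, a large difference or a place in the authors' table. Each choice rests on these same arrays, so the kept signs are no independent support. Of the 589 values 573 stayed on the same side of the threshold and 16 came to pass it. Causes of these changes were not tested. Signal over background limits miR-141, miR-184 and miR-31.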
